A study of Mus musculus with 22 samples.

Results

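The zinc finger genes numbered Zfp900 to Zfp999 were followed in fully-grown germinal vesicle (GV) mouse oocytes with mutations in the RNA interference gene Dicer, the piRNA gene Mili or both. Members were the protein-coding genes of the count table whose GENCODE mouse symbol is Zfp9 followed by 2 more digits. The rule found 63 genes among the 52636 of the table, and left out 1 pseudogene with such a symbol. It used no expression value.

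Most of these genes encode KRAB zinc finger proteins. The C2H2 fingers of such a protein read a DNA sequence, and the KRAB domain recruits the co-repressor TRIM28 with the histone methyltransferase SETDB1, which places repressive chromatin marks. Many of them bind retrotransposons, and the family grows by tandem duplication, so that neighbouring genes are often near copies. A KRAB core was found in the translated GENCODE coding sequence of 59 of the 63 members. The number of C2H2 fingers lay between 0 and 21 with a median of 11. No finger matched the pattern used in Zfp957, Zfp972 and Zfp935, and the first 2 of these also lacked the KRAB core, as did Zfp956 and Zfp974. The label of a KRAB group therefore holds for most members but not for Zfp957, the member with the highest level.

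All females were C57BL/6. The single-end run held wild-type (Dicer WT/WT, n = 3), Dicer ΔMT/ΔMT (n = 4) and Dicer SOM/SOM (n = 3) oocytes and 1 Dicer ΔMT/WT sample, without ages in the labels. The paired-end run held 4 controls aged 10 to 38 weeks (Dicer SOM/WT with Mili DAH/WT), 2 RNAi mutants aged 13 and 17 weeks (Dicer SOM/SOM with Mili DAH/WT), 4 double mutants aged 11 to 40 weeks (Dicer SOM/SOM with Mili DAH/DAH) and 1 piRNA mutant aged 16 weeks (Dicer SOM/WT with Mili DAH/DAH). The plots name the groups of the first run WT, dMT, SOM and dMT_het and those of the other run CTRL, RNAI, DBL and PIRNA, in the order given here. Every paired-end sample therefore carried at least 1 Mili DAH and 1 Dicer SOM allele, also the controls. The ΔMT deletion removes the retrotransposon promoter of the short oocyte Dicer, the SOM allele can make only full-length Dicer, and DAH is a catalytically dead MILI. The SOM line goes back to 1 embryonic stem cell clone. Nothing in the labels says which samples of a group came from separate females, so p-values measure the spread between these samples.

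Total counts were 6468380 to 90713013 in the single-end run, lowest in Dicer SOM/SOM replicate 3, and 22928936 to 43540806 in the paired-end run. Dicer1 was at 997 to 1050 CPM, counts scaled to the library total, in wild type, 428 to 533 in Dicer ΔMT/ΔMT and 41.6 to 54.4 in Dicer SOM/SOM. It was at 502 to 763 in controls, 53.8 to 62.1 in RNAi mutants, 53.1 to 60.8 in double mutants and 596 in the piRNA mutant. The 8 oocyte marker genes summed to between 10300 and 13400 CPM in all samples. Granulosa markers summed to between 29.7 and 71.4 CPM, fibroblast and theca markers to at most 2.77, and immune markers to at most 1.01 outside the double mutants, which ranged from 0.44 to 7.04. The granulosa, fibroblast and immune sums were lower in the RNAi mutants (38.6 to 41.8, 0.57 to 0.822 and 0.217 to 0.259 CPM) than in the double mutants (43.9 to 71.4, 1.25 to 1.6 and 0.44 to 7.04), and the fibroblast sum was lower in Dicer SOM/SOM (0.532 to 0.92) than in Dicer ΔMT/ΔMT (1.08 to 1.95). Their part in the results below was not tested. In bulk RNA a smaller share of a transcript and a smaller amount of RNA per oocyte cannot be told apart.

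The members lie in 23 places of the genome when starts within 2 Mb are joined, and 7 of these hold more than 1 member and 47 members in all. The 3 largest are on chromosome 4 (chr4:145510759-147848366, 16 members), chromosome 2 (chr2:175372436-178078476, 10 members) and chromosome 17 (chr17:21567046-22867134, 10 members). The cluster on chromosome 17 held 6 of the 20 members called lower in Dicer SOM/SOM, so the sequences of its promoters (RefSeq, GRCm38, 250 bases before to 50 after the transcript start) are shown first. The RefSeq table held 53 of the 63 members. The longest word, searched on both strands, in at least 6 of the 10 promoters of this cluster was CACGTGACC, which contains the E-box CACGTG. It was found in Zfp942, Zfp943, Zfp944, Zfp946, Zfp947 and Zfp994, in no member outside the cluster, and in 1.25% of the 27025 genes with a promoter in the table. Zfp942 and Zfp943 hold it at 1 and the same site, so the 6 genes do not stand for 6 separate sites. Capitals mark it in 4 of these promoters. The promoter of Zfp945, a member that fell but lacks the word, follows them.
Zfp942 (chr17:21962415-21962714, minus strand): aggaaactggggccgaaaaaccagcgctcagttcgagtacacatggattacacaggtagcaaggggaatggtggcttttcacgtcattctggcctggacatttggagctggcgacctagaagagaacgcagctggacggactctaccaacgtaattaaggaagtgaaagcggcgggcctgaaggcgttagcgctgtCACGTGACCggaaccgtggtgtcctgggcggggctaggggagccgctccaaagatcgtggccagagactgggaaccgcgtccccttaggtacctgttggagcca
Zfp946 (chr17:22423952-22424251, plus strand): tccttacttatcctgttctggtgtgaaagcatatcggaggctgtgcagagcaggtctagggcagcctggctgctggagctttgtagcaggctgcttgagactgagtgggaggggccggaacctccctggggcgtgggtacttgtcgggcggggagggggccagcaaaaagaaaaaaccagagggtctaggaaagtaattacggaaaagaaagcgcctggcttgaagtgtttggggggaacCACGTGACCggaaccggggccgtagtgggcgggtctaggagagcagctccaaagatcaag
Zfp994 (chr17:22225565-22225864, minus strand): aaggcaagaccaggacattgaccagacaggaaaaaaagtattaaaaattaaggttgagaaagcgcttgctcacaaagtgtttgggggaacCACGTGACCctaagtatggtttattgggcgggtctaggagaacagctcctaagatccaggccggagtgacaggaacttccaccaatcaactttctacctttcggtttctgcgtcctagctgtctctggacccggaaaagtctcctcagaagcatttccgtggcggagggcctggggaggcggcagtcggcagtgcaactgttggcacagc
Zfp947 (chr17:22165928-22166227, minus strand): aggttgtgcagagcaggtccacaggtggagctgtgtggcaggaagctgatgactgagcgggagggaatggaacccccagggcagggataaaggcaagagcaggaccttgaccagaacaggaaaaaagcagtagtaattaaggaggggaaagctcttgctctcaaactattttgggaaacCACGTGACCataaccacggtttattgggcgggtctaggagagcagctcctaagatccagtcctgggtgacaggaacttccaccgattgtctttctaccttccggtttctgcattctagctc
Zfp945 (chr17:22867085-22867384, minus strand): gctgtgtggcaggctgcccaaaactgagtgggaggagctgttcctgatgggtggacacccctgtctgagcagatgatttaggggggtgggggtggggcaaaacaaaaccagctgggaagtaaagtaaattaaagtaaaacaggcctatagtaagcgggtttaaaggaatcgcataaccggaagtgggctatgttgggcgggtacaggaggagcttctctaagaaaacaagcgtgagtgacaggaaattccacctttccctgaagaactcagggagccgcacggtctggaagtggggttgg
The promoters of Zfp942 and Zfp944 share an unbroken run of 207 bases. Those of Zfp942 and Zfp943 overlap by 194 bases on opposite strands, with 95 bases between the 2 transcript starts, so these genes are read away from each other from 1 short stretch. The shared word of these 2 genes lies in that overlap and is 1 site. In Zfp944 the word lies within the run shared with Zfp942, so these 3 genes are not separate cases of it. Zfp943, Zfp944 and the printed Zfp942, Zfp946 and Zfp994 were all called lower in Dicer SOM/SOM, whereas Zfp947 was not. The word was chosen after the calls were known and is a description of the window, not a binding site.

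Another word was shared over clusters. CCTGCCAGTCAGAA was the longest word, on either strand, held by at least 14 of the 53 members with a promoter, on chromosomes 2, 5, 7 and 19, and by 0.159% of all genes with a promoter. Of the 14 members with it, 4 were called lower in Dicer SOM/SOM or double mutants, against 19 of all 53. Capitals mark it in the promoter of Zfp977, a member of the chromosome 7 cluster.
Zfp977 (chr7:42592496-42592795, minus strand): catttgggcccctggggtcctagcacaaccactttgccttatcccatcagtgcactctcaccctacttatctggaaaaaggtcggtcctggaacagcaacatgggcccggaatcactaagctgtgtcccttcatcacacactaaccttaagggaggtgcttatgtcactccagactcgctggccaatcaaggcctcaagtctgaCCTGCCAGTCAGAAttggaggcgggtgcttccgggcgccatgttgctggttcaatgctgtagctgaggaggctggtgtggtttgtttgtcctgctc

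Near copies limit what the counts can tell. In the deposited counts each mapped place of a read holds a fraction of it, so reads from a stretch that several genes share are divided between them. To gauge this, the transcripts of each member were cut into windows of 50 bases and matched to the transcripts of all other genes. The share of windows found elsewhere had a median of 20% over the members. It was over 50% in 19 members and at most 20% in 32. In the chromosome 2 cluster it ran from 23.3% to 100%, in the chromosome 4 cluster from 1.83% to 89% and in the chromosome 17 cluster from 0.115% to 20%. Zfp987, Zfp988 and Zfp989 on chromosome 4 show why, since the stretch that codes for 1 finger is the same in all 3. The eighth finger of Zfp987, from its first cysteine codon, and the closest 84 bases of the other coding sequences are given here, with bases that differ from Zfp987 in capitals.
Zfp987: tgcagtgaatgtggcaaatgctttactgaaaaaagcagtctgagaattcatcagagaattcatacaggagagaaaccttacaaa
Zfp988: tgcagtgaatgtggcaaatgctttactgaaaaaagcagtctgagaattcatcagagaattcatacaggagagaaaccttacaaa
Zfp989: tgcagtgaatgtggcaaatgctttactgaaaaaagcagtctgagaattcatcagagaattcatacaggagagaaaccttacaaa
Zfp982: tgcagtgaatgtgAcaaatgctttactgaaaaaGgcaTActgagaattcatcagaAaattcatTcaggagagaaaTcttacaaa
Zfp988 and Zfp989 differed from Zfp987 at 0 of these bases, and Zfp982 at 7. The values of the first 3 genes are therefore not independent of each other, whereas 11.9% of the windows of Zfp982 were shared.

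Levels between members were compared per length, as RPKM with the same normalization. In wild type, 35 members reached 1 RPKM and 10 reached 10 RPKM, with a median of 1.19. Controls of the paired-end run gave 33 and 12 members, with a median of 1.04. Zfp957 (chr14:79212353-79247296) was the highest in both, with 114 ± 10.8 RPKM (SD, n = 3) in wild type and 85.5 ± 7.48 (SD, n = 4) in controls. Its counts made up 30% of the summed CPM of all members in wild type and 22.1% in controls. Zfp961 came next at 38 ± 0.692 RPKM in wild type, then Zfp958 at 21.8 ± 1.96, Zfp979 at 19.4 ± 0.818 and Zfp978 at 18.5 ± 1.35 (SD, n = 3). From Zfp958 down to Zfp952, at 18.2 ± 2.42 (SD, n = 3), each differed from the next by less than their SDs added together, so that their order is not fixed by these samples. Of Zfp978, 77.4% of the windows were shared, and its level includes reads of copies.

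**Figure D1:**
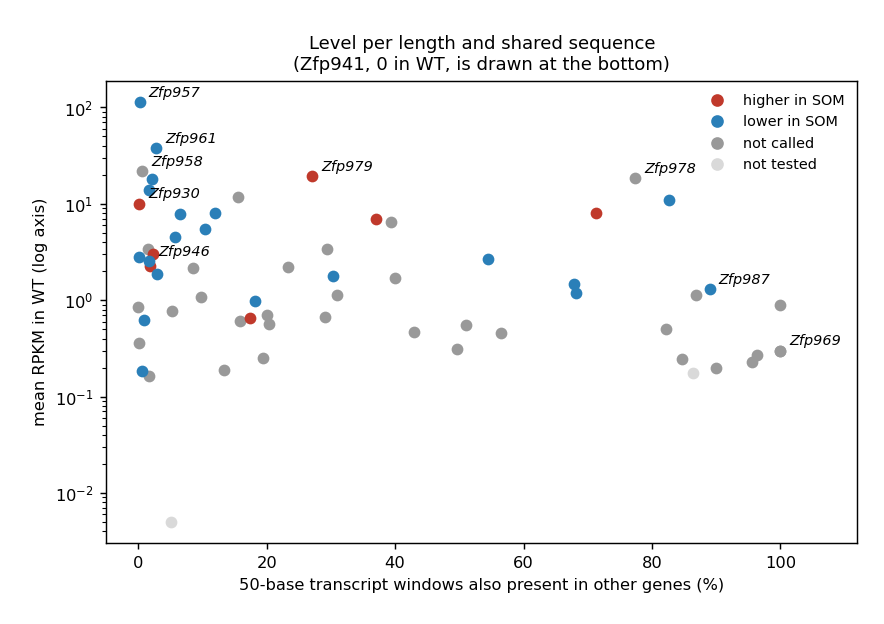
Each point is 1 of the 63 members, with the share of its 50-base transcript windows that other genes also hold (%) on the x axis and its mean RPKM in wild type (n = 3, log axis) on the y axis. Colours give the call in Dicer SOM/SOM against wild type, and Zfp957 stands highest at 114 RPKM with hardly any shared window.

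Each run was then tested on its own, over all genes that passed the filter on low counts, with the quasi-likelihood test of edgeR, and p-values were adjusted over all of them (Benjamini-Hochberg). A gene is called at an adjusted p under 0.05. Of the members, 61 of 63 passed the filter in the single-end run and 59 in the paired-end run. Zfp986 and Zfp941 failed it in both and Zfp993 and Zfp995 in the paired-end run. The first 2 had less than 0.1 CPM in every sample. The counted gene models of Zfp986 and Zfp993 held only 63 and 387 bases. Their GENCODE M21 coding sequences gave 401 and 313 residues, so the counts of these 2 genes cover only a part of them. Zfp993 reached 1.13 RPKM in wild type on its short model.

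In Dicer SOM/SOM oocytes, more members were lower than higher. Of 61 tested, 20 were called lower (32.8%) and 7 higher (11.5%), where 14.2% and 14.5% of all 23151 tested genes were. The median member changed by -0.35 on the log2 scale, and the median tested gene by 0.02. Other Zfp genes, 280 of them tested, gave 20.4% lower and 13.6% higher with a median of -0.07. Dicer ΔMT/ΔMT oocytes gave 11 members lower (18%) and 6 higher (9.84%), against 7.3% and 8.06% of all genes. Of the other Zfp genes, 9.64% were lower and 6.43% higher there. Leaving out wild-type replicate 1 or 2 brought the number of members called from 17 to 9, and leaving out Dicer ΔMT/ΔMT replicate 3 or 4 to 11. Of the 11 falls, 3 stayed called when each library was left out in turn.

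The paired-end run, which shares no sample with the first, also held more falls than rises. RNAi mutants had 11 of 59 members lower (18.6%) and 2 higher (3.39%), against 3.64% and 7.07% of all 20989 tested genes, with a median of -0.62 over members and -0.02 over all genes. With only 2 RNAi mutants, the number called fell from 13 to 7 without replicate 1 and to 3 without replicate 2, and none of the 11 falls stayed called when each library was left out in turn. Double mutants had 18 members lower (30.5%) and 6 higher (10.2%), against 8.84% and 12.3% of all genes, with a median of -0.46 over members. Other Zfp genes, 268 of them tested, also leaned lower. They gave 9.7% lower and 4.85% higher in RNAi mutants, with a median of -0.20. In double mutants they gave 14.9% lower and 7.46% higher, with a median of -0.15. Both comparisons use the same 4 controls. Of the 18 falls in double mutants, 16 stayed called without any 1 library, and of the 20 in Dicer SOM/SOM, 15 did.

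**Figure D2:**
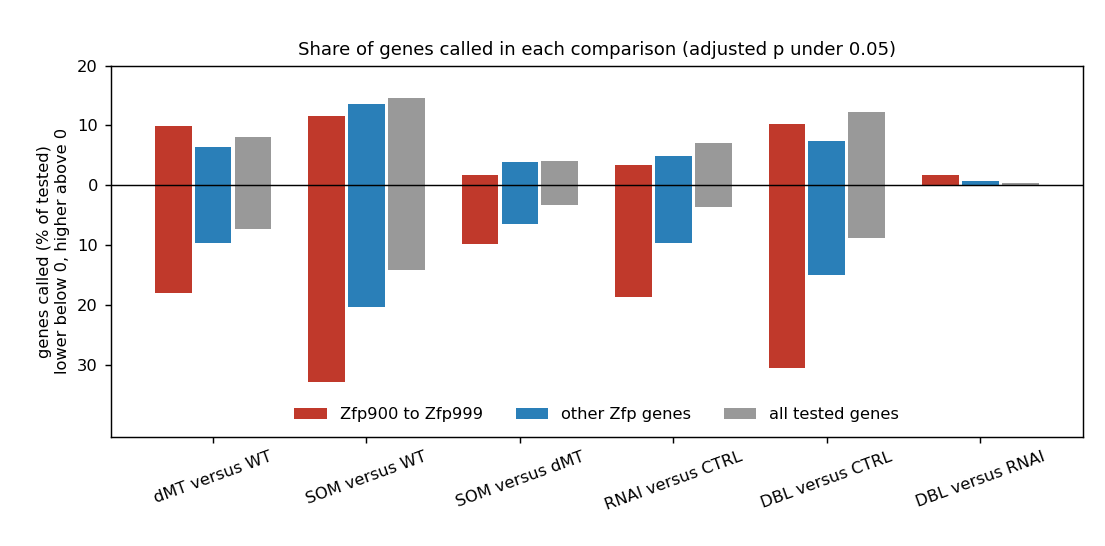
Bars give the percentage of tested genes called higher (above 0) or lower (below 0) in each of the 6 comparisons, for the Zfp900 to Zfp999 genes (red), the other Zfp genes (blue) and all tested genes (grey). In Dicer SOM/SOM 32.8% of the members lie below 0, against 14.2% of all genes.

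Direct comparisons of mutants gave few calls. Dicer SOM/SOM differed from Dicer ΔMT/ΔMT by 6 members lower and 1 higher of 61, where 3.32% and 4.03% of all genes were called. Double mutants differed from RNAi mutants by 1 member higher and 0 lower of 59, where 0.31% and 0.00476% of all genes were called. In the latter, 5 members (8.47%) had an unadjusted p under 0.05 by edgeR, as had 4.78% of all genes. DESeq2 called 3 members higher and 0 lower there, and 0.734% and 0.0715% of all genes.

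Of the 20 members called lower in Dicer SOM/SOM against wild type, 17 were also called lower in double mutants against controls (85% of the 20 and 94.4% of the 18 there), and all 20 had a negative change. Over all 20089 genes tested in both runs, 42.1% of those lower in Dicer SOM/SOM were lower in double mutants, and 73.3% the other way round. Of the 7 higher in Dicer SOM/SOM, 3 were also called higher in double mutants, namely Zfp930, Zfp933 and Zfp979, against 55% over all genes. No member was called in opposite directions in the 2 runs. Over the 59 members tested in both, Pearson's r between the 2 log2 fold changes was 0.783, which is a description over genes that partly share reads.

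**Figure D3:**
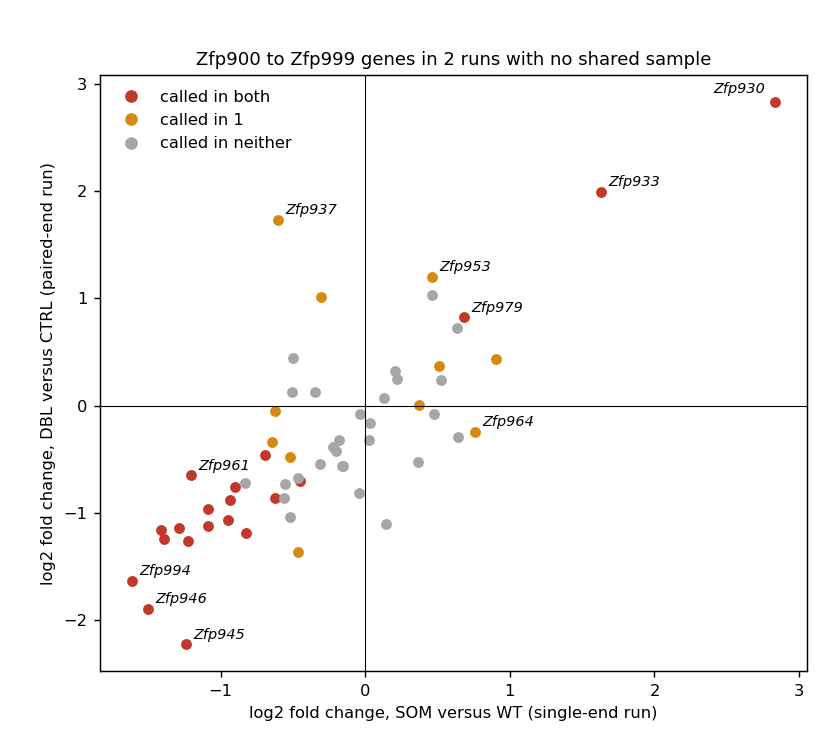
Each point is 1 of 59 members, with its log2 fold change in Dicer SOM/SOM against wild type (x axis) and in double mutants against controls (y axis), coloured by whether it was called in both runs, in 1 or in neither. The falls line up in the lower left, and Zfp937 stands apart with -0.60 and 1.73.

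**Figure D4:**
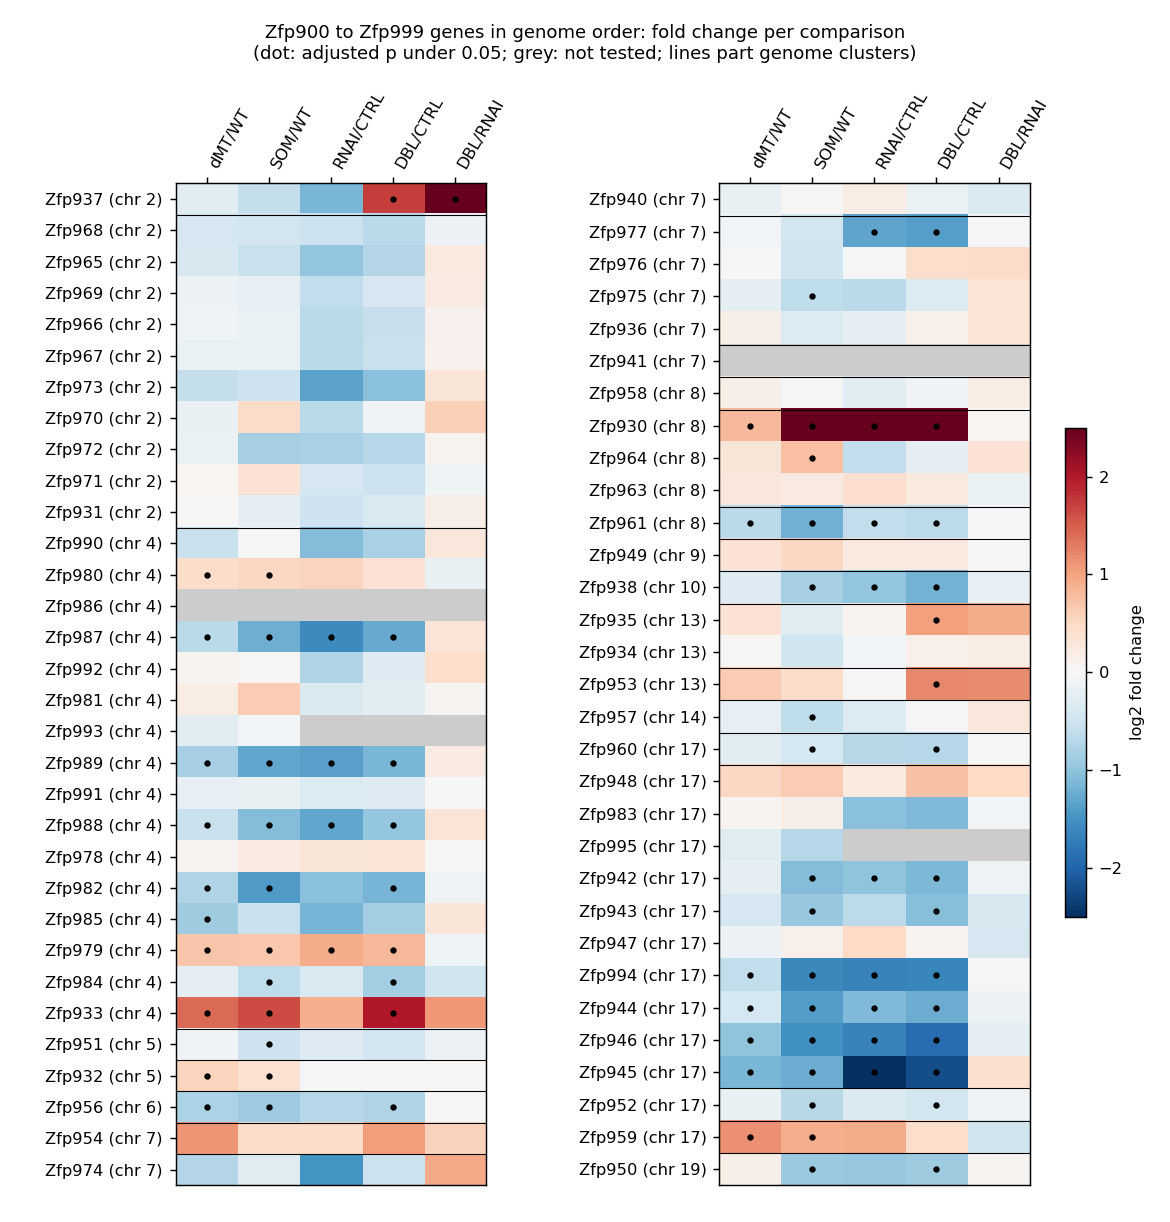
Rows are the 63 members in genome order and columns 5 comparisons, with the log2 fold change in colour (red higher, blue lower, from -2.5 to 2.5), a dot for an adjusted p under 0.05, grey where not tested and lines between genome clusters. The dark blue block on chromosome 17 runs from Zfp942 to Zfp945 with Zfp947 as the exception.

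Several falls were on chromosome 17. Of the 10 members of that cluster, 4 were called lower in Dicer ΔMT/ΔMT, 6 in Dicer SOM/SOM, 6 of 9 tested in double mutants and 5 in RNAi mutants, and none was called higher in any of these. The summed level of the cluster was 54 to 56.9 CPM in wild type, 39.2 to 46.8 in Dicer ΔMT/ΔMT and 22.4 to 28.9 in Dicer SOM/SOM. It was 61.8 to 73.2 in controls, 29.4 to 35.2 in RNAi mutants and 25.5 to 32.6 in double mutants. The single piRNA mutant, at 54.7, lay below all controls and above the RNAi and double mutants. The sums of the mutants with 2 SOM alleles did not overlap those of their controls, and no test was made on sums.

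Zfp946 (chr17:22424259-22456689, plus strand) encodes 11 fingers and shares 1.75% of its windows. It was at 7.23, 7.75 and 7.48 CPM in wild type, 3.67, 3.53, 3.16 and 4.56 in Dicer ΔMT/ΔMT and 2.64, 2.63 and 2.59 in Dicer SOM/SOM. In the other run it was at 7.31, 12.5, 15 and 9.86 in controls, 3.55 and 3.5 in RNAi mutants and 2.62, 2.71, 2.21 and 4.5 in double mutants. All samples of these mutants lay below all controls of their run. The log2 fold changes were -1.003 ± 0.138 (SE, adjusted p = 0.000762) in Dicer ΔMT/ΔMT and -1.50 ± 0.161 (SE, adjusted p = 5.77e-05) in Dicer SOM/SOM. They were -1.66 ± 0.344 (SE, adjusted p = 0.00581) in RNAi mutants, lost without either of them (adjusted p = 0.0659 without replicate 1 and 0.0768 without replicate 2), and -1.90 ± 0.267 (SE, adjusted p = 0.000178) in double mutants.

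Zfp994 (chr17:22197265-22225614, minus strand) encodes 17 fingers. It was at 4.78, 5.11 and 4.61 CPM in wild type, 2.63, 4.14, 2.84 and 2.99 in Dicer ΔMT/ΔMT and 1.37, 1.76 and 1.58 in Dicer SOM/SOM. The 3 genotypes did not overlap. The fall in Dicer ΔMT/ΔMT was -0.62 (log2, adjusted p = 0.0323), a call kept with 4 of the 10 libraries left out in turn and lost with the other 6. The difference of Dicer SOM/SOM from Dicer ΔMT/ΔMT was -0.99 ± 0.194 on the log2 scale (SE, adjusted p = 0.0118, and 0.0537 without Dicer SOM/SOM replicate 1). Controls stood at 6.59, 5.7, 7.49 and 4.74 CPM, RNAi mutants at 1.99 and 1.87, and double mutants at 1.38, 2.78, 1.72 and 2. The change was -1.61 ± 0.203 in Dicer SOM/SOM (SE, adjusted p = 0.00018), -1.67 ± 0.324 in RNAi mutants (SE, adjusted p = 0.00389, and 0.0632 without replicate 2) and -1.64 ± 0.248 in double mutants (SE, adjusted p = 0.000319). Of its windows, 18.2% were shared, over 62 other genes.

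Zfp944 (chr17:22337989-22361400, minus strand), whose promoter shares most of its sequence with that of Zfp942, was called lower in the same 5 comparisons as Zfp994. It was at 14.9, 15 and 15.4 CPM in wild type, 12.1, 9.75, 10.8 and 11.7 in Dicer ΔMT/ΔMT and 6.64, 5.6 and 4.46 in Dicer SOM/SOM, so that the 3 genotypes did not overlap. The fall in Dicer ΔMT/ΔMT was -0.45 (log2, adjusted p = 0.037), kept with 3 of the 10 libraries left out in turn, and that in Dicer SOM/SOM -1.39 ± 0.146 (SE, adjusted p = 5.34e-05). Between these mutants the difference was -0.94 ± 0.139 (log2, SE, adjusted p = 0.00269). The piRNA mutant was at 15.1 CPM, controls at 17.5 to 20.9, RNAi mutants at 9.77 and 7.87 and double mutants at 6.19 to 9.17. Zfp942 itself fell by 1.09 in Dicer SOM/SOM and by 1.12 in double mutants, and Zfp943, on the other side of the shared start region, by 0.95 and 1.06 (log2). Zfp942 was at 7.85 and 8.65 CPM in Dicer SOM/SOM replicates 1 and 2 and at 2.59 in the shallow replicate 3.

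Zfp945 (chr17:22846697-22867134, minus strand) had a low level and the largest falls of the members in the paired-end run. It was at 1.01, 1.81 and 0.863 CPM in wild type, 0.5 to 0.642 in Dicer ΔMT/ΔMT and 0.654, 0.312 and 0.719 in Dicer SOM/SOM. Controls stood at 0.867 to 1.62 CPM, RNAi mutants at 0.173 and 0.19 and double mutants at 0.135 to 0.377. The 2 RNAi mutants had 4 and 6.61 reads assigned, so that the change of -2.62 ± 0.613 (log2, SE, adjusted p = 0.0128) rests on few reads and was lost without either (adjusted p = 0.103 and 0.112). The change in double mutants was -2.23 ± 0.443 (SE, adjusted p = 0.00249) and stayed called without any 1 library. In Dicer ΔMT/ΔMT it was -1.14 ± 0.325 (SE, adjusted p = 0.0373), which was lost when wild-type replicate 1 or 2 or any of the 4 mutant libraries was left out (adjusted p between 0.0581 and 0.191).

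**Figure D5:**
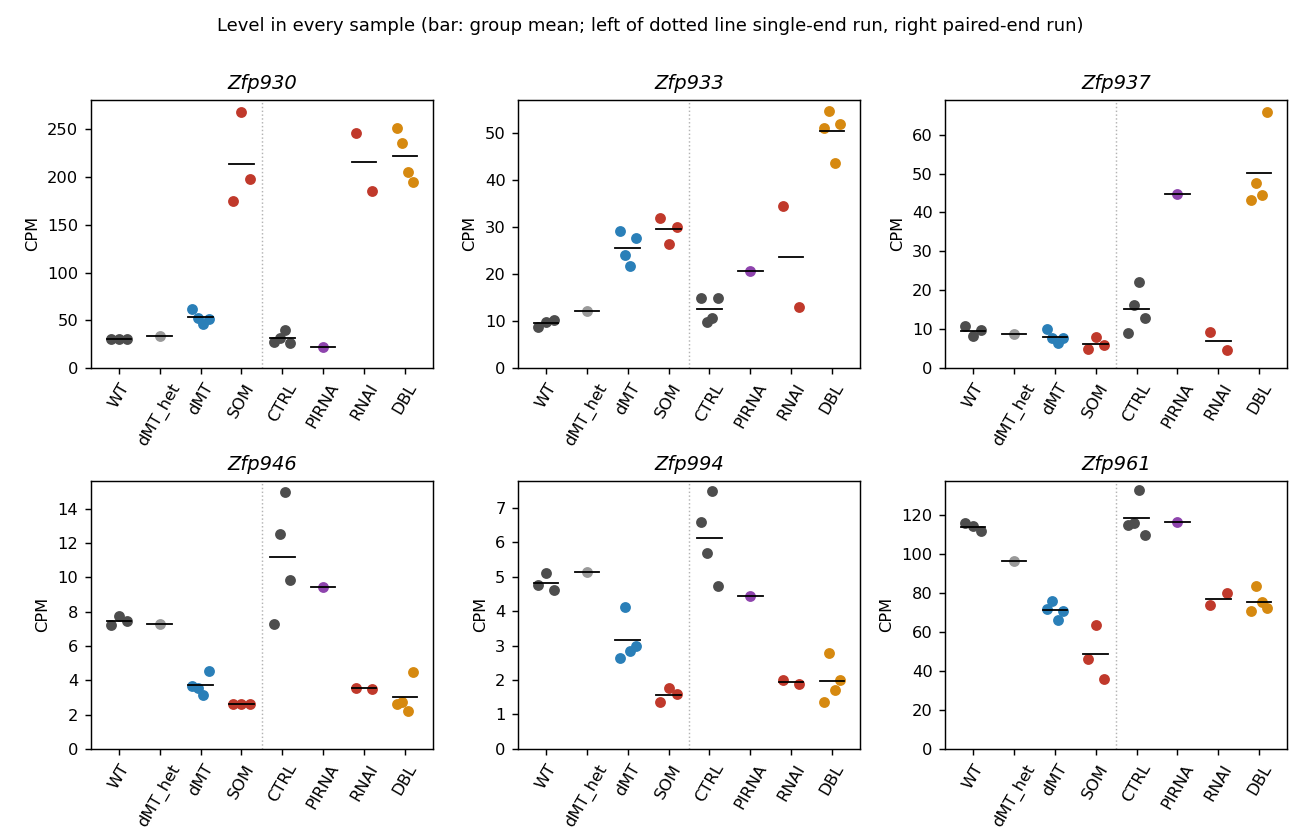
Points are single samples and bars group means in CPM (linear axes from 0) for 6 members, with the single-end run left and the paired-end run right of the dotted line. Zfp930 rises in Dicer SOM/SOM, RNAi mutants and double mutants to between 175 and 269 CPM, Zfp937 only stands above its controls in the piRNA mutant and the double mutants, and Zfp946, Zfp994 and Zfp961 lie lower in the Dicer mutants.

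The largest change of a member against wild type or controls was a rise. Zfp930 (chr8:69209038-69230536, plus strand), a KRAB gene with 12 fingers, shares 0.173% of its windows and so was counted almost free of copies. It was at 30.1, 30 and 30.4 CPM in wild type, 62.3, 52.2, 45.7 and 51.6 in Dicer ΔMT/ΔMT and 175, 269 and 198 in Dicer SOM/SOM. In the other run it was at 26.9, 31.9, 40.1 and 25.9 in controls, 246 and 185 in RNAi mutants and 252, 236, 206 and 195 in double mutants, while the piRNA mutant stood at 21.9. No sample of a Dicer mutant overlapped its controls, and Dicer ΔMT/ΔMT lay apart from both wild type and Dicer SOM/SOM. On the log2 scale the rise over wild type was 0.81 ± 0.147 in Dicer ΔMT/ΔMT (SE, adjusted p = 0.00408) and 2.83 ± 0.164 in Dicer SOM/SOM (SE, adjusted p = 1.05e-06). Between these mutants it was 2.02 ± 0.144 (SE, adjusted p = 2.39e-05). RNAi mutants gave 2.79 ± 0.186 (SE, adjusted p = 3.69e-07) and double mutants 2.83 ± 0.168 (SE, adjusted p = 7.64e-08). Double mutants differed from RNAi mutants by 0.04 ± 0.191 (log2, SE), within the spread of the samples. Of its neighbours in the cluster, Zfp964 was called higher in Dicer SOM/SOM by 0.76, but not without wild-type replicate 1 or Dicer SOM/SOM replicate 1, and Zfp963 in no comparison.

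Zfp937 (chr2:150218073-150240725, plus strand), with 14 fingers, was high in the samples with 2 Mili DAH alleles. Controls were at 9.08, 16.1, 22.2 and 13 CPM, RNAi mutants at 9.25 and 4.53, double mutants at 43.2, 47.5, 44.5 and 65.9, and the piRNA mutant at 44.7. All 5 samples with 2 such alleles lay above the 6 samples with 1. In the single-end run, whose labels name no Mili allele, it was at 8.23 to 10.8 in wild type, 6.36 to 10.2 in Dicer ΔMT/ΔMT and 4.89 to 7.87 in Dicer SOM/SOM, with no call. Double mutants exceeded controls by 1.73 ± 0.274 (log2, SE, adjusted p = 0.000453) and RNAi mutants by 2.88 ± 0.385 (SE, adjusted p = 0.00248). The latter was the only call of a member between these groups and had an adjusted p of 0.0979 without RNAi mutant replicate 2. The 2 double mutants of 11 weeks stood at 44.5 and 65.9 CPM, those of 40 and 35 weeks at 43.2 and 47.5. The marker sums of other cells also differed between double and RNAi mutants, as given above. In the piRNA mutant they were 35.4 CPM for granulosa, 0.529 for fibroblast and theca and 0.752 for immune markers. The part of other cells in the level of Zfp937 was not tested. Of its windows, 29.4% were shared with 7 genes.

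The piRNA mutant, as 1 sample, allows no test. Its value was beyond all controls in 37 of the 59 tested members (62.7%), against 36.1% of all tested genes. It was beyond all controls and also 1 log2 unit or more away from their mean in 3 members (5.08%), against 1.48% of all tested genes. These were Zfp937, Zfp953 at 14.9 CPM against 3.67 to 7.33 in controls, and Zfp992 at 1.39 against 3 to 3.86. Zfp953 (chr13:67339306-67360605) was also called higher in double mutants, at 10.4, 10.9, 10.6 and 14.5 CPM, by 1.20 ± 0.256 (log2, SE, adjusted p = 0.00397), with RNAi mutants at 6.83 and 3.45. The exons of Zfp953 overlap those of 2 other annotated genes by 4.77% and 5.47% of its length. The single Dicer ΔMT/WT sample lay beyond all wild-type samples in 33 of 61 members (54.1%), against 56.9% of all tested genes. It met both limits against wild type in 0 of 61 members, against 0.713% of all tested genes, and had Dicer1 at 718 CPM.

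The chromosome 4 cluster moved in both directions. In Dicer SOM/SOM, 3 of its 15 tested members were called higher and 5 lower, and in double mutants 2 of 14 higher and 5 lower. The summed level of the cluster was 152 to 163 CPM in wild type and 202 to 229 in Dicer SOM/SOM, and 186 to 216 in controls and 259 to 332 in double mutants, with no overlap in either run. This sum follows the few members of high level. Of the tested members, 9 of 15 had a negative change in Dicer SOM/SOM (median -0.06) and 10 of 14 in double mutants (median -0.57).

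Zfp933 (chr4:147822986-147848366, minus strand), with 12 fingers and 1.83% of its windows shared, led the rises. It was at 8.77, 9.7 and 10.1 CPM in wild type, 29, 24.1, 21.7 and 27.5 in Dicer ΔMT/ΔMT and 32, 26.5 and 29.9 in Dicer SOM/SOM. Controls were at 15, 9.86, 10.6 and 14.9, double mutants at 50.9, 54.7, 43.6 and 51.9, the RNAi mutants at 34.4 and 12.9 and the piRNA mutant at 20.5. Both Dicer mutants of the first run and the double mutants lay above all their controls, whereas 1 RNAi mutant lay within them. On the log2 scale Zfp933 rose by 1.42 ± 0.129 in Dicer ΔMT/ΔMT (SE, adjusted p = 6.16e-05), 1.63 ± 0.137 in Dicer SOM/SOM (SE, adjusted p = 1.11e-05) and 1.995 ± 0.257 in double mutants (SE, adjusted p = 8.39e-05). In RNAi mutants it was 0.90 and not called.

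Zfp979 (chr4:147611937-147642513), among the members of highest level, was the only member called higher in all 4 comparisons of a Dicer mutant with controls besides Zfp930. It was at 48 to 52.1 CPM in wild type, 73.7 to 93.1 in Dicer ΔMT/ΔMT and 66.3 to 92.6 in Dicer SOM/SOM, and at 72.5 to 83.1 in controls, 161 and 134 in RNAi mutants and 114 to 160 in double mutants. The log2 fold changes were between 0.68 and 0.93, and the call in RNAi mutants was lost without their replicate 1. Of its windows, 27.1% were shared. Zfp980, with 71.3% shared, was called higher in Dicer ΔMT/ΔMT (0.47) and Dicer SOM/SOM (0.51), the first kept with 5 of the 10 libraries left out in turn.

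The near copies Zfp987, Zfp988 and Zfp989 were called lower in all 4 of these comparisons, with log2 fold changes from -0.56 to -1.59. Zfp987 was at 3.55, 3.9 and 3.49 CPM in wild type, 1.94 to 2.57 in Dicer ΔMT/ΔMT and 1.57, 1.51 and 1.58 in Dicer SOM/SOM, and its fold change in RNAi mutants was -1.59 ± 0.326 (SE, adjusted p = 0.00567, and 0.134 without replicate 2). The call of Zfp988 in Dicer ΔMT/ΔMT was kept with 4 of the 10 libraries left out in turn, and that of Zfp989 was lost without wild-type replicate 2. In RNAi mutants the call of Zfp988 was lost without either mutant and that of Zfp989 without replicate 2. As their reads are divided among each other, the calls of the 3 genes are not independent. Zfp982 (chr4:147492417-147513486), which shares less, was at 13.8, 10.8 and 11.3 CPM in wild type, 6.07 to 9.31 in Dicer ΔMT/ΔMT and 4.72, 4.91 and 3.17 in Dicer SOM/SOM, a log2 fold change of -1.42 ± 0.206 (SE, adjusted p = 0.000496) in the last. Zfp985 was called lower only in Dicer ΔMT/ΔMT (-0.89 ± 0.226, SE, adjusted p = 0.0233), at 0.775 to 1.04 CPM against 1.53 to 1.83. That call was lost without wild-type replicate 1 or 2 or Dicer ΔMT/ΔMT replicate 3 or 4 (adjusted p between 0.0621 and 0.0864).

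No member of the chromosome 2 cluster was called in any comparison. Its 10 members summed to 9.56 to 10.8 CPM in wild type, 9.4 to 20.8 in controls and 8.26 to 11.7 in double mutants. All had negative fold changes in RNAi mutants and double mutants, with medians of -0.68 and -0.56. Control replicate 2 gave the highest control value of each member, such as 10.7 CPM for Zfp931 against 4.9 to 6.72 in the other controls. The size of these negative changes therefore leans on 1 library, and the genes partly share reads. The share of windows found elsewhere was 87.3% at the median. Zfp965 to Zfp969 and Zfp973, with 84.7% to 100% shared, can hardly be told apart from each other in these counts, and their low level gives few reads. Less was shared in Zfp931 (23.3%), Zfp970 (49.7%) and Zfp971 (51.1%). Zfp931 alone had a mean of 4.59 CPM in wild type, where the cluster summed to 10.1 at the mean.

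Members of high level outside the clusters also fell. Zfp961 (chr8:71951038-71971716), with 11 fingers, was at 116, 114 and 111.98 CPM in wild type, 72.1, 76.2, 66 and 70.9 in Dicer ΔMT/ΔMT and 46, 63.9 and 36 in Dicer SOM/SOM. Controls were at 115, 116, 133 and 110, RNAi mutants at 73.8 and 80.2, double mutants at 70.7, 83.6, 75.7 and 72.6 and the piRNA mutant at 117. No mutant sample with altered Dicer on both alleles overlapped its controls. The log2 fold changes were -0.68 ± 0.147 in Dicer ΔMT/ΔMT (SE, adjusted p = 0.0104), -1.21 ± 0.163 in Dicer SOM/SOM (SE, adjusted p = 0.000286) and -0.65 ± 0.112 in double mutants (SE, adjusted p = 0.000916).

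Zfp957 was at 304, 336 and 278 CPM in wild type and 210, 213 and 169 in Dicer SOM/SOM, a log2 fold change of -0.63 ± 0.107 (SE, adjusted p = 0.00139). It was at 205 to 252 in controls and 183 to 258 in double mutants, which overlap, and was not called there. The 2 RNAi mutants, at 181 and 183, lay below all controls, with a log2 fold change of -0.34 that was not called. Zfp958, at 47.2 to 56.4 CPM in wild type and 45 to 57.7 in Dicer SOM/SOM, changed by -0.04 ± 0.115 (log2, SE), and Zfp978 by 0.20, neither called. Of the remaining members, Zfp938, Zfp956, Zfp960 and Zfp984 were called lower both in Dicer SOM/SOM and in double mutants, by 0.45 to 1.19 on the log2 scale. Zfp984 belongs to the chromosome 4 cluster. The share of windows found elsewhere was 82.7% in Zfp960 and 54.5% in Zfp984, so that their values can include reads of copies. In Dicer SOM/SOM the call of Zfp938 was kept with 8 of the 10 libraries left out in turn, that of Zfp984 with 6 and that of Zfp960 with 4, and in double mutants that of Zfp956 was lost without replicate 1 or 2 or control replicate 2. Zfp952 was lower in Dicer SOM/SOM (31.1 to 34.6 CPM) than in Dicer ΔMT/ΔMT (45.7 to 52.5) by -0.52 ± 0.107 (SE, adjusted p = 0.0158), and Zfp950 (1.98 to 2.88 against 4.26 to 6.14) by -1.08 ± 0.197 (SE, adjusted p = 0.0085). Zfp936 and Zfp957 were also called lower in this comparison, and each call was kept with 4 of the 10 libraries left out in turn and lost with the other 6. For Zfp933 the difference between the 2 mutants was 0.21 (log2) and not called. Zfp959 was at 1.23 to 1.4 CPM in wild type, 2.85 to 3.01 in Dicer ΔMT/ΔMT (1.14 ± 0.163, SE, adjusted p = 0.000984) and 1.73 to 2.76 in Dicer SOM/SOM, called higher in both.

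The falls were also found among members with little shared sequence. Among the 32 members with at most 20% of windows shared, 31 were tested in the single-end run, and 14 were called lower (45.2%) and 4 higher (12.9%) in Dicer SOM/SOM. In double mutants, 13 of 30 were lower (43.3%) and 3 higher (10%). Members called lower in Dicer SOM/SOM or double mutants had a median of 6.55% of windows shared and of 11 fingers, against 20% and 11 over all members. Zfp935, called higher in double mutants, overlaps another annotated gene over 98.5% of its length and is uncertain.

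The co-repressor genes that KRAB proteins work with were read from a list of 14. Calls were made for 4 of them in Dicer SOM/SOM (2 in each direction) and for 2 in double mutants (1 in each direction), against the shares of all genes given above. Trim28 was at 149.7 to 156.5 CPM in wild type and changed by 0.27 ± 0.0703 (log2, SE, adjusted p = 0.0144) in Dicer SOM/SOM and by 0.22 in double mutants, where it was not called. Setdb1 changed by -0.19 and 0.01 and was not called. Hdac1, a histone deacetylase that stood at 4.98 to 5.72 CPM in wild type, rose by 1.19 ± 0.121 in Dicer ΔMT/ΔMT (SE, adjusted p = 0.00012), 2.64 ± 0.133 in Dicer SOM/SOM (SE, adjusted p = 4.29e-07) and 2.33 ± 0.182 in double mutants (SE, adjusted p = 1.02e-06). Morc3, which acts in silencing at retrotransposons, fell by 0.40 in Dicer SOM/SOM and by 0.48 in double mutants. Copies of these genes were not searched for.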

How the data were processed

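RNA-seq libraries of GV oocytes (22 samples) were analysed from the table that the authors deposited. Per the methods and the submitters' processing notes, the authors mapped reads with STAR 2.5.3a to mm10 (GRCm38) and ran featureCounts with the GENCODE M15 annotation, ignoring strand and dividing reads over all mapped places and overlapping genes, so the deposited values are expected counts. Symbols and gene types came from GENCODE M21 by gene ID (52403 of 52636 matched).

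Expected counts were rounded. Each run was fitted apart with edgeR 4.0.16 (R 4.3.3), with TMM normalization, filterByExpr (minimum count 10, total 15, replicated groups) and the quasi-likelihood F test, adjusted over all tested genes (23151 and 20989) at 0.05. The scripts were tested on simulated data. Single samples were placed by log2(CPM + 0.5). With 3 counts, the detection floor was 0.0352 to 0.432 CPM in the single-end and 0.0677 to 0.13 in the paired-end run. These floors cover counting error only, since PCR reads are not independent molecules.

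The members and lists were chosen with earlier results of these data known. Named members are, in each comparison, the 5 with the largest called change and a mean of at least 1 CPM, the 5 of highest RPKM in wild type, and every member called between double and RNAi mutants. Zfp942, Zfp943, Zfp953, Zfp963, Zfp964, Zfp980, Zfp988, Zfp989, Zfp992 and the 4 co-repressors, with any other member given values, were added after their values were seen. Alternatives were DESeq2 1.42.0, median-of-ratios factors, other filters, unrounded counts, only the compared groups, a replicate block and each library left out. In the paired-end run, terms for age over 30 weeks and for Gm42418 above 1000 CPM were also used. The split by Gm42418 rests on the level of that gene, and no label names such sets. Both RNAi mutants lay above the limit (4945 and 4698 CPM) and the piRNA mutant below it (293.7). The list of the authors' repeat annotation was not used here.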

Additional observations from a re-analysis of the deposited data

Results flagged for a closer look

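Over the 18 named members, the samples of each group of 4 were compared with one another, 54 groups in all. In 3 of them 1 sample stood further from the rest than Dixon's 95% value allows, where chance gives about 1 in 20 groups (2.7 of 54). Zfp952 was at 52.5 CPM in Dicer ΔMT/ΔMT replicate 1, the highest of that group, whose others lay between 45.7 and 46.3. Zfp952 was also at 32.9 CPM in double mutant replicate 1, the lowest of its group, whose others lay between 44.4 and 45.9, and its call in double mutants was lost without that library (adjusted p = 0.0778 by edgeR) and also without control replicate 1o or 2 (0.0671 and 0.0641). Zfp987 was at 3.11 CPM in control replicate 2, the highest of the controls, whose others lay between 2.63 and 2.66.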

How the results depend on the processing

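Of the counts of members called, those in Dicer SOM/SOM (27) and double mutants (24) stayed within 1.5 times under every alternative run. The 17 called in Dicer ΔMT/ΔMT became 10 with a filter at 5 CPM, 11 with the replicate block and 11 among members with at most 20% shared windows (a setting chosen after seeing the data, which leaves fewer members), and 9 to 18 without 1 library. The 13 in RNAi mutants became 6 with the replicate block and 3 to 13 without 1 library. The 7 between Dicer SOM/SOM and Dicer ΔMT/ΔMT became 11 with DESeq2. The 1 between double and RNAi mutants became 3 with DESeq2, 2 without a filter, 0 among members with at most 20% shared windows, and 0 to 2 without 1 library. The cause was not tested. Zfp958 in Dicer SOM/SOM, not called, changed sign to 0.037 with the filter at 5 CPM, and without 1 library it ranged from -0.167 to 0.035, above 0 without wild-type replicate 2 (0.035) or Dicer SOM/SOM replicate 1 (0.011) or 3 (0.022). Terms for age or for the Gm42418 level left all 3 paired-end counts within 1.5 times. Same-numbered samples share only a number: their deviations from group means correlated by -0.145 to 0.255, and not all pairs exceeded 0.1. Leaving out 1 RNAi mutant leaves 1 sample, assumed to vary like the other groups. Depth limits members under about 1 CPM, and Dicer SOM/SOM replicate 3 has a floor of 0.432 CPM.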
